A study of Canis lupus familiaris with 9 samples.

Results

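Solute carriers (SLC genes) of the plasma membrane and of intracellular organelles were examined in canine macrophages at rest and after polarization with cytokines. The genes were chosen by 3 criteria, namely a symbol made of SLC, a family number, the letter A and a member number, a family other than the mitochondrial SLC25 carriers, and a measured group mean of at least 50 normalized counts in at least 1 of the 3 groups. Of 192 symbols of this form, 35 were SLC25 carriers, and 136 of the other 157 reached the level, against 12696 genes in the whole table. They fell into 41 families. The level that chose them is therefore no finding, and it favored genes that were high in any 1 group. It was reached in all 3 groups by 122 genes, in 2 groups by 9 and in 1 group by 5, of which SLC1A4, SLC24A3, SLC37A3 and SLC16A14 passed through M1 alone and SLC22A23 through M2 alone. Just inside the level were SLC16A14, SLC37A3 and SLC22A23, with highest means of 50.5, 52.6 and 53.5, and just outside were SLC12A8, SLC9A2 and SLC16A11, with 34.9, 33.3 and 30.8. The symbol also admitted 4 genes named after a carrier that do not encode one, SLC2A4RG, SLC4A1AP, SLC7A6OS and SLC9A3R1, which left 132 carriers.

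Monocytes were isolated by adherence from the blood of 3 unrelated healthy spayed female beagles about 2 years old, and were grown for 7 days with 10 ng/mL of human M-CSF, the growth factor of macrophages. The cells were then kept for 24 h without a polarizing cytokine (M0), with canine IFN-γ (M1) or with the canine cytokines IL-4 and IL-13 together (M2), each at 20 ng/mL. Polyadenylated RNA was sequenced from 3 samples in each of the 3 groups, 9 in all, and the same 3 sample descriptions recur in every group. All cells were thus of a single breed and sex, were differentiated in vitro, and were kept in a high-glucose medium supplemented with amino acids. The values given below are the authors' mean normalized counts, which are least squares means over the 3 samples of a group after normalization for depth. A mean has no replicate error here because values per sample were not analysed, so none of the differences below was tested, and the depth of each sample is unknown. Differences are given as the log2 ratio of the means of 2 groups, where 1 stands for a mean 2-fold higher and -1 for a mean 2-fold lower, and a gene was counted as higher or lower when this ratio was at least 1 in size. Normalized counts are not corrected for gene length, so levels were compared between groups and not between genes. In bulk RNA, fewer cells of a type and less RNA per cell cannot be told apart.

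Solute carriers move small molecules across membranes. The uniporters let a solute follow its gradient, whereas symporters and antiporters couple it to a gradient of sodium, protons or another solute. In macrophages they are known for setting the supply of glucose, glutamine, arginine and cystine, for exporting lactate, and for moving iron, zinc and manganese into the cell or out of the phagosome, where these metals are contested between host and microbe. Several act in lysosomes, where they release the products of digestion and report amino acid supply to the kinase mTORC1.

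All 9 listed macrophage markers in the table had a mean of at least 50 in every group, and their summed mean was 287993 in M0, 132455 in M1 and 260596 in M2. Genes known to respond to the cytokines followed the group labels. IDO1 had a mean of 159 in M0, 104559 in M1 and 348 in M2, and FCER2 had a mean of 51.5 in M0, 43.3 in M1 and 3735 in M2. Of the lists for other cells, the T cell markers summed to 1686, 5387 and 1416 in M0, M1 and M2, mostly from CD2, and of the other 6 markers, CD3E, LCK and CD5 were above 50 in every group, at between 87.6 and 174, CD3D and CD3G were below 50 in every group, and CD8A was between 35.1 and 50.4. The dendritic cell markers summed to 2699, 1736 and 60952, mostly from CD1C, and the mast cell or basophil markers to 543, 95.2 and 4036. The B cell markers summed to between 9991 and 12242, mostly from CD79A, with MS4A1 and PAX5 below 50. Neutrophil markers summed to 895, 389 and 145, endothelial markers to between 49.0 and 182, and no NK cell, platelet or erythroid marker in the table reached 50. None of the listed markers in the table was at 0. The part of these cells in the results below was not tested.

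As a whole the solute carriers did not move in a single direction. In M1 against M0, 11 of the 136 genes (8.09%) had a mean at least 2-fold higher, against 5.53% of the 10902 genes of the table at the same level, and 19 (14.0%) had a mean at least 2-fold lower, against 8.92%. In M2 against M0, 4 genes (2.94%) were higher, against 3.04% of all genes, and 10 (7.35%) were lower, against 3.52%. In M2 against M1, 17 genes (12.5%) were higher, against 7.25%, and 16 (11.8%) were lower, against 5.64%. At this 2-fold ratio the shares were thus above the background in 5 of the 6 directions and close to it for genes higher in M2 than in M0. The median log2 ratio of the solute carriers was -0.10, -0.05 and 0.02 in the 3 comparisons, against 0.01, 0.02 and 0.00 for all genes, whereas their median size, regardless of sign, was 0.52, 0.32 and 0.43 against 0.35, 0.20 and 0.29. M1 was the group with the lowest mean for 62 of the 136 genes (45.6%, against 40.2% of all genes), M2 for 41 (30.1%, against 23.4%) and M0 for 33 (24.3%, against 36.4%). M1 was also the group with the highest mean for 47 genes (34.6%, against 41.1%), M0 for 48 (35.3%, against 32.2%) and M2 for 41 (30.1%, against 26.6%). The share of all normalized counts held by solute carriers was 1.18% for M0, 1.28% for M1 and 1.13% for M2. No gene among them that does not encode a carrier passed a ratio of 1 in any comparison.

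**Figure D1:**
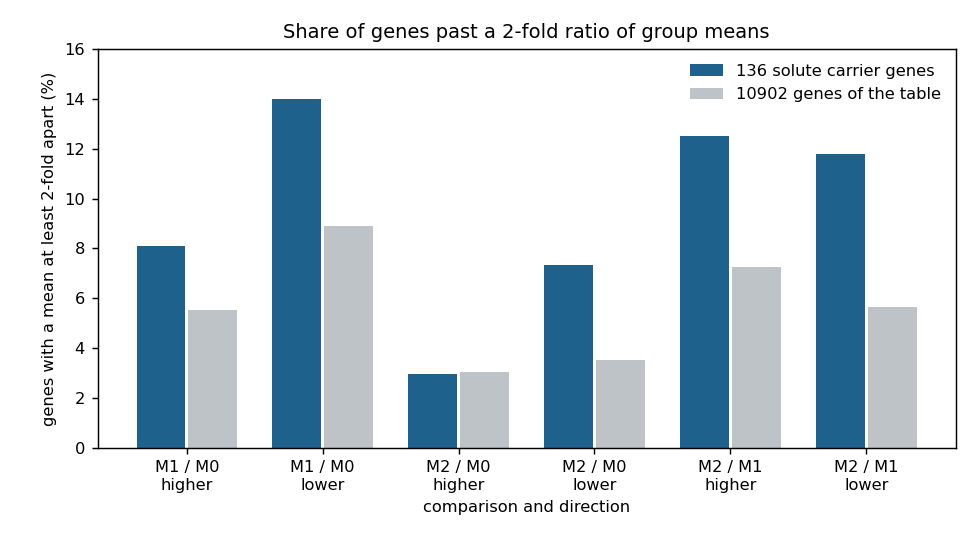
Percentage of genes with a group mean at least 2-fold higher or lower (y axis) in each of the 3 comparisons (x axis), for the 136 solute carrier genes (blue) and for the 10902 genes of the table with a mean of at least 50 in 1 or more groups (gray). The blue bars are above the gray bars except for genes higher in M2 than in M0, at 2.94% and 3.04%; the bars carry no error because only group means were used.

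The spread of ratios over all genes depended on the level, and was wider at both ends of the range than in its middle. Over the 1076 genes of the table with an average of the 3 group means below 100, the central 95% of log2 ratios in M1 against M0 ran from -2.77 to 1.99, whereas over the 4177 genes between 500 and 2000 it ran from -1.48 to 1.24 and over the 369 genes above 10000 it ran from -2.43 to 3.56. Between 2000 and 10000 it ran from -1.56 to 1.76. Most genes named below are therefore given with their levels beside the ratios. A ratio past 1 in M1 against M0 can lie within the range of its level at any level, and this is stated below only for some genes. It also holds, for example, for SLC7A11, SLC2A1, SLC29A1, SLC26A6, SLC46A1, SLC43A2 and SLC46A3.

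Counts by substrate group, and by the lists of other genes further below, are given as a description, and differences between the substrate groups were not tested. The shares of all genes to set beside them were 5.53% higher and 8.92% lower in M1 against M0. They were 3.04% and 3.52% in M2 against M0, and 7.25% and 5.64% in M2 against M1. Among metal carriers, every gene past a ratio of 1 was higher in M1 than in M0, or lower in M2 than in M0 or M1. The share with lower means in M1 than in M0 was 20.8% for amino acid, 20% for sugar and 25% for ion carriers, against 8.92% of all genes. It was also 25% for nucleoside carriers (1 of 4) and for carriers of vitamins, organic ions and amines (3 of 12). It was 11.1% for carriers of lipids, acyl groups and choline, and 0% for the other substrate groups. Each of the 4 genes higher in M2 than in M0 belonged to a different substrate group.

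**Figure D2:**
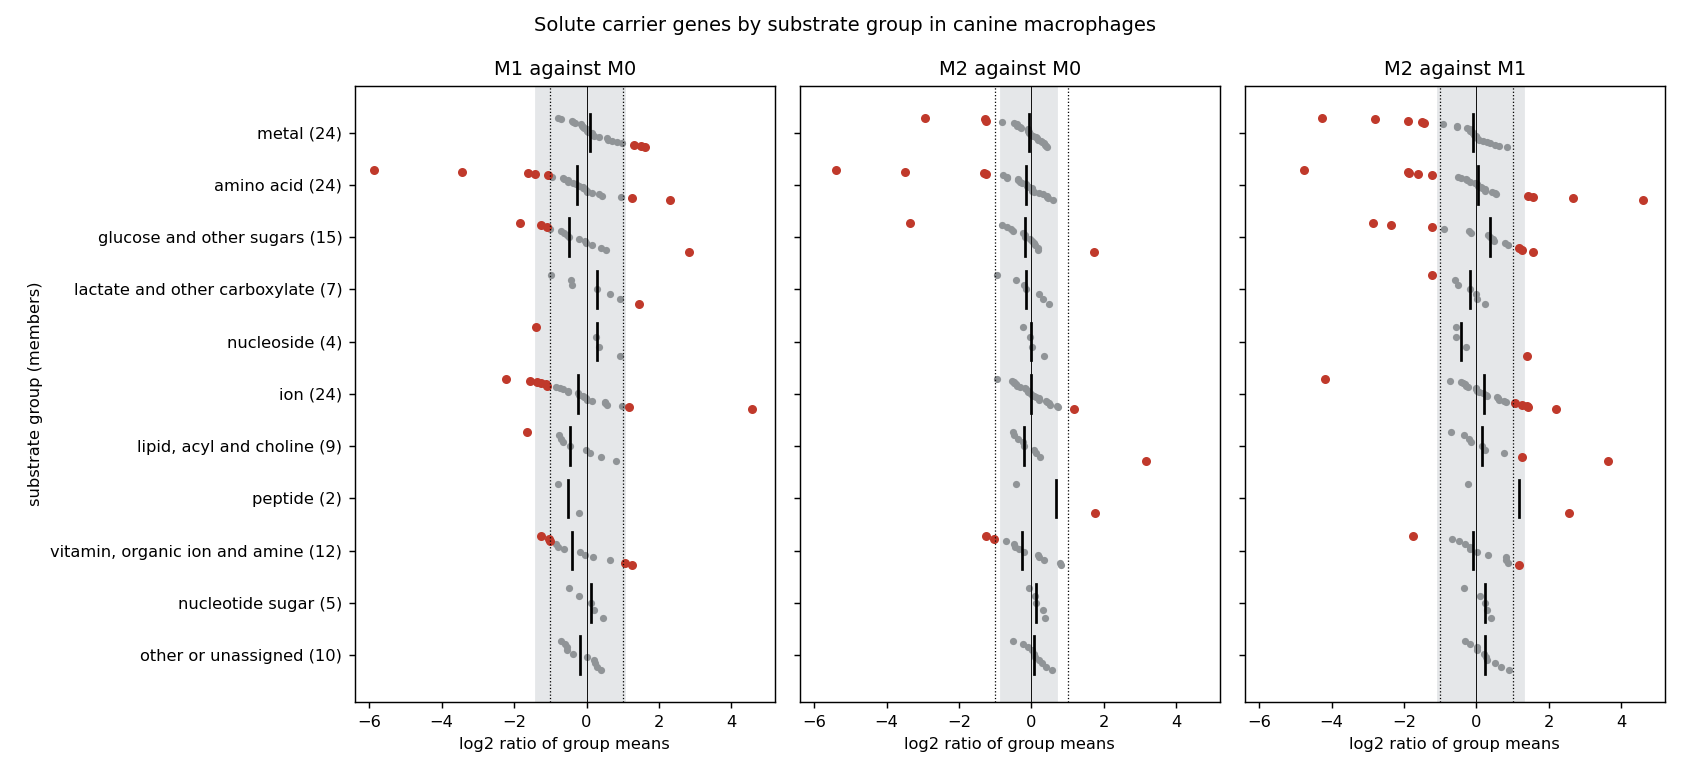
Log2 ratio of group means (x axis) for each of the 136 solute carrier genes, by substrate group (y axis, number of genes in brackets), in the 3 comparisons. Each point is a gene, red where the ratio is at least 1 in size, black bars are group medians, dotted lines mark -1 and 1, and the gray band holds the central 90% of all 10902 genes. Points beyond the band lie on the left for amino acid carriers in M2 against M0 (down to -5.40 for SLC1A3) and on both sides for amino acid, sugar and ion carriers in M1 against M0.

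Of the 24 metal carriers, 3 had a mean at least 2-fold higher in M1 than in M0 and none had a lower one, and 3 were lower and none higher in M2 than in M0. Directly between the polarized states, 5 were lower in M2 than in M1 and none was higher. The genes higher in M1 than in M0 were the zinc and manganese importers SLC39A8 (ZIP8) and SLC39A14 (ZIP14) and the zinc exporter SLC30A1 (ZnT1). SLC39A8 and SLC39A14 also take up iron not bound to transferrin. SLC39A8 had a mean normalized count of 6734 in M0, 20803 in M1 and 5552 in M2. SLC39A14 had a mean of 7607 in M0, 18877 in M1 and 988 in M2. SLC30A1 had a mean of 2256 in M0, 6463 in M1 and 924 in M2. Each of these genes was highest in M1 and lowest in M2. The log2 ratios in M1 against M0 were 1.63, 1.31 and 1.52 for SLC39A8, SLC39A14 and SLC30A1, and those in M2 against M0 were -0.28, -2.94 and -1.29. In M2 against M1 the mean of SLC39A14 was 19.1 times lower, at rank 31 from the bottom among all 10902 genes.

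SLC11A1 (NRAMP1), the phagosomal pump that withdraws iron and manganese from engulfed microbes, had a mean of 42186 in M0, 68227 in M1 and 23890 in M2. Its ratios to M0 stayed below 1 in size, at 0.69 for M1 and -0.82 for M2, and the ratio of M2 to M1 was -1.51. SLC40A1 (ferroportin), the exporter of cellular iron, was lower than M0 in both polarized groups, with means of 134 in M0, 81.9 in M1 and 56.2 in M2. Its log2 ratios to M0 were -0.71 in M1 and -1.25 in M2, and the latter lies within the range from -1.73 to 1.81 that held the central 95% of genes averaging below 100 in that comparison. The copper importer SLC31A1 had means of 957, 1709 and 900 in M0, M1 and M2, with a ratio of 0.84 in M1 against M0. FKBP15, which overlaps SLC31A1 in the reference annotation, had means of 7750, 7361 and 4053, and sharing of reads was not tested. The endosomal iron importer SLC11A2 (DMT1) and the heme carrier SLC48A1 (HRG1) were close to M0 in both groups, with ratios between -0.39 and 0.16. The fifth metal carrier that was lower in M2 than in M1 was SLC41A3, of a family of magnesium carriers, with means of 744, 1474 and 537 in M0, M1 and M2 and a ratio of -1.46, and it is named here after its values were seen.

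**Figure D3:**
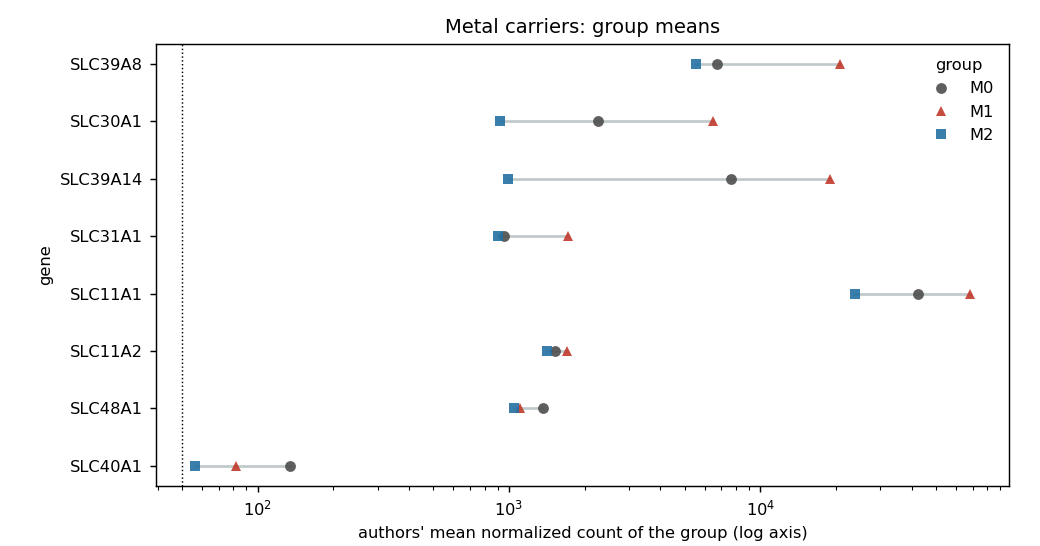
Mean normalized count of the group (x axis, log scale) for 8 metal carriers (y axis) in M0 (gray circles), M1 (red triangles) and M2 (blue squares), with the level of 50 as a dotted line and no error bars because only group means were used. The M1 symbol lies farthest to the right and the M2 symbol farthest to the left for SLC39A8, SLC30A1, SLC39A14, SLC31A1, SLC11A1 and SLC11A2, and SLC40A1 is highest in M0.

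The remaining metal carriers, among them most zinc carriers of the secretory pathway, stayed within a 2-fold range in each comparison. Of the 9 importers of the SLC39A family, 2 were higher in M1 and 1 was lower in M2 than in M0, and of the 6 exporters of the SLC30A family, 1 was higher in M1 and the same gene, SLC30A1, was lower in M2. The median ratio of the metal carriers was 0.10 in M1 against M0 and -0.07 in M2 against M0, so that the group moved through few genes. The summed mean of the metal carriers was 83165 in M0, 140430 in M1 and 56524 in M2, and without SLC11A1 it was 40979, 72203 and 32634. These sums give more weight to longer genes and to genes with high counts. The ratio of SLC39A14 to SLC30A1 within a group, in which scaling cancels, was 3.37 in M0, 2.92 in M1 and 1.07 in M2. The ratio of SLC39A8 to SLC30A1 was 2.99 in M0, 3.22 in M1 and 6.01 in M2, so that both ratios in M1 were near those in M0, whereas in M2 the first was lower and the second higher than in M0.

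Genes that handle metals inside the cell were listed beside the carriers. Of 13 listed genes of iron storage and uptake at the level, 2 were higher and 3 lower in M1 than in M0, and 2 were higher and none lower in M2. TFRC, the transferrin receptor, had means of 45532, 8361 and 25434 in M0, M1 and M2, with a log2 ratio of -2.45 in M1. CYBRD1, a ferric reductase, had means of 2566, 315 and 8059, with ratios of -3.03 in M1 and 1.65 in M2, whereas STEAP4, another metalloreductase, had means of 784, 4394 and 543, with a ratio of 2.49 in M1. The iron entry genes thus differed in direction within M1. Of 8 listed genes of metallothionein and copper handling, none was higher and 2 were lower in both comparisons with M0. These were the zinc-binding metallothioneins MT1E, with means of 3579, 1384 and 729, and MT2A, with means of 5973, 2929 and 1624. MTF1, the zinc-sensing transcription factor known to act on metallothionein genes and SLC30A1, had means of 1247, 1351 and 897. Metallothionein copies are similar to each other in sequence, and reads shared between them could have been split by the counting.

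Of the 24 amino acid carriers, 2 had a mean at least 2-fold higher and 5 a mean at least 2-fold lower in M1 than in M0. In M2 against M0 none was higher and 4 were lower, and in M2 against M1, 4 were higher and 5 were lower. The median log2 ratio was -0.25, -0.15 and 0.04 in the 3 comparisons.

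The largest differences in M1 were in exchangers and exporters of neutral and aromatic amino acids. SLC7A8 (LAT2), a light chain that exchanges neutral amino acids, had a mean of 2176 in M0, 37.5 in M1 and 918 in M2. Its log2 ratio was -5.86 in M1 against M0, or 58.0 times lower, at rank 7 from the bottom among all 10902 genes, and -1.24 in M2 against M0. SLC16A10 (TAT1), a uniporter of aromatic amino acids, had a mean of 450 in M0, 41.1 in M1 and 263 in M2, with log2 ratios of -3.45 and -0.77. Both genes were below the level of 50 in M1 and above it in M0 and M2. SLC43A2 (LAT4), another uniporter of neutral amino acids, was highest in M1, with means of 11765, 27979 and 11926 and a ratio of 1.25 in M1 against M0. SLC1A4 (ASCT1), an exchanger of small neutral amino acids, had means of 36.5, 180 and 49.1 in M0, M1 and M2, and its ratio of 2.30 to M0 rests on an M0 mean below 50.

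The light chains of the SLC7 family reach the cell surface bound to the heavy chain SLC3A2 (4F2hc), which had means of 9601 in M0, 6699 in M1 and 7404 in M2. The heavy chain itself stayed within a 2-fold range. Relative to SLC3A2 the light chains parted. The ratio of SLC7A8 to SLC3A2 was 0.227 in M0, 0.00560 in M1 and 0.124 in M2, and that of SLC7A11 (xCT), which brings in cystine in exchange for glutamate, was 0.388, 0.209 and 0.504. The ratio of SLC7A7 (y+LAT1), an exchanger of cationic and neutral amino acids, was 0.263, 0.420 and 0.312, and that of SLC7A5 (LAT1) was 0.0236, 0.0293 and 0.0378. These ratios were read only between groups, since the genes differ in length. In the reference annotation SLC7A7 overlaps MMP14, with means of 153931, 114109 and 183444 in M0, M1 and M2. It also overlaps LRP10, with means of 13565, 11091 and 11432, and MRPL52, with means of 1992, 2525 and 2204. Sharing of reads between these genes and SLC7A7 was not tested.

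SLC7A11 had a mean of 3723 in M0, 1399 in M1 and 3729 in M2, with log2 ratios of -1.41 in M1 and 0.00 in M2 against M0. SLC7A6 (y+LAT2) was lower in both, with means of 229, 109 and 91.4 and ratios of -1.07 and -1.33. SLC7A5, SLC7A7 and the arginine importer SLC7A1 (CAT1) had ratios to M0 between -0.21 and 0.44 in both polarized groups. Hence the cystine carrier was low in M1 and at the M0 level in M2. Of 6 listed genes of cystine use and glutathione at the level, 1 was higher in M1 than in M0 and none lower, and none passed the ratio in M2. GCLC, the catalytic subunit for the limiting step of glutathione synthesis, had means of 10058, 11830 and 12475. The higher gene was CTH, an enzyme that makes cysteine within the cell, with means of 37.3, 74.9 and 55.2. Its ratio of 1.01 rests on an M0 mean below 50. This ratio lies within the range from -2.77 to 1.99 given above for genes averaging below 100.

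Among the amino acid carriers, the lowest ratios in M2 against M0 were those of the glutamate carriers SLC1A3 and SLC1A7. SLC1A3 (EAAT1) had a mean of 521 in M0, 335 in M1 and 12.3 in M2. Its log2 ratio of -5.40 in M2 against M0, or 42.2 times lower, was the lowest of all 10902 genes in that comparison, but it rests on an M2 mean below 50 and became -4.57 with a pseudocount of 10. SLC1A7 (EAAT5) had a mean of 158 in M0, 51.5 in M1 and 13.9 in M2, with ratios of -1.62 in M1 and -3.51 in M2. The latter was at rank 6 from the bottom, but it also rests on an M2 mean below 50 and became -2.81 with a pseudocount of 10. Both genes were lowest in M2, and SLC1A7 was also lower in M1 than in M0. The M1 ratio of SLC1A7, however, lies within the range from -2.77 to 1.99 given above for genes averaging below 100. SLC1A5 (ASCT2), the glutamine exchanger of the same family, had means of 1679, 1618 and 1923, with ratios of -0.05 and 0.20.

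Other carriers of glutamine and small neutral amino acids differed less. SLC38A1 (SNAT1) had a mean of 1192 in M0, 614 in M1 and 1813 in M2, and it was 2.95 times higher in M2 than in M1. SLC38A2 (SNAT2) had means of 5213, 4238 and 4154, and the taurine carrier SLC6A6 had means of 24747, 17512 and 15502, with ratios to M0 of -0.50 and -0.67. None of these ratios to M0 reached 1 in size. In lysosomes, SLC38A9, which senses arginine for mTORC1, had means of 781, 793 and 823, and the proton-coupled exporter SLC36A1 had means of 771, 976 and 689. SLC66A1, which exports cationic amino acids from lysosomes, was lower in M2 than in M1 with means of 921, 1773 and 581 and a log2 ratio of -1.61, and it was named after its values were seen. Of 14 listed genes of lysosomal amino acid sensing at the level, 1 was higher and 1 lower in M1 than in M0 and none in M2. The higher gene was RRAGD, a Rag GTPase, with means of 1064, 2201 and 978, and the lower gene was CASTOR1, a cytosolic arginine sensor, with means of 74.7, 28.6 and 45.2. The CASTOR1 ratio of -1.39 rests on an M1 mean below 50. It lies within the range from -2.77 to 1.99 given above for genes averaging below 100.

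**Figure D4:**
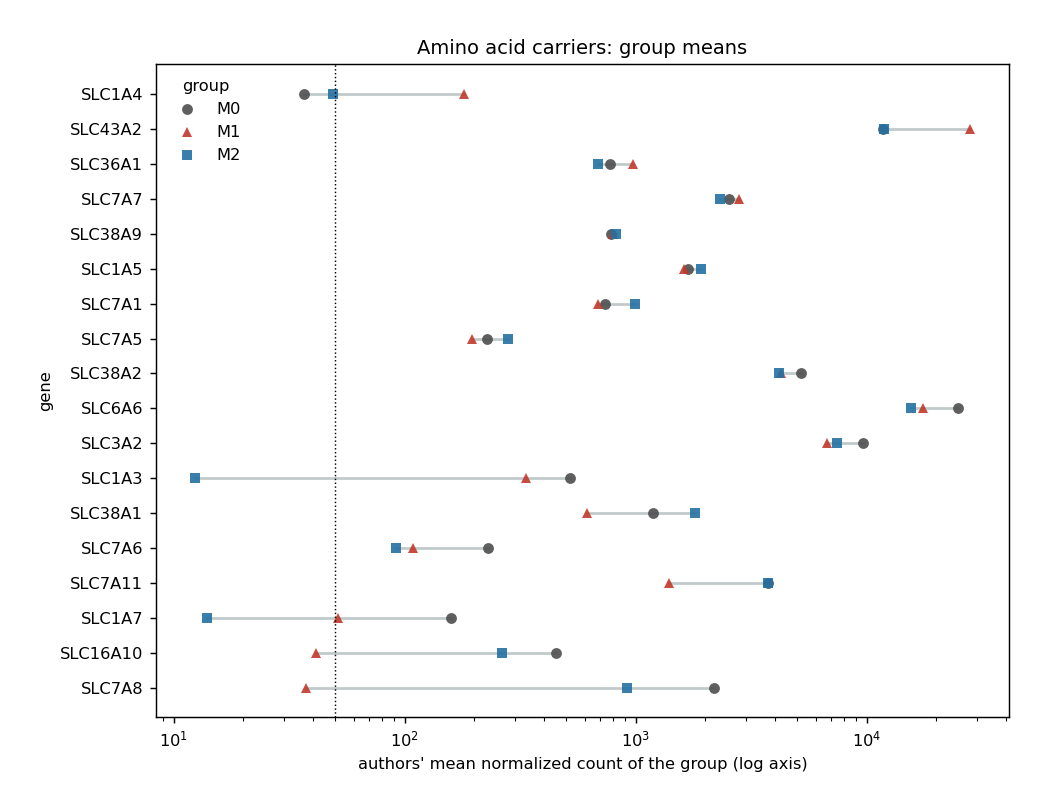
Mean normalized count of the group (x axis, log scale) for 18 amino acid carriers (y axis, ordered by the log2 ratio of M1 to M0) in M0 (gray circles), M1 (red triangles) and M2 (blue squares), with the level of 50 as a dotted line and no error bars because only group means were used. The widest gaps are those of SLC7A8 and SLC16A10, with M1 farthest to the left at 37.5 and 41.1, and of SLC1A3 and SLC1A7, with M2 farthest to the left at 12.3 and 13.9.

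Of the 15 carriers of glucose and other sugars, 1 was higher and 3 were lower in M1 than in M0, and 1 was higher and 1 lower in M2 than in M0. In M2 against M1, 3 were higher and 3 lower. The 2 polarized states differed in which facilitative glucose carrier was high. SLC2A6 (GLUT6), a carrier of lysosomal membranes, had a mean of 708 in M0, 5049 in M1 and 690 in M2. SLC2A3 (GLUT3), a high-affinity glucose carrier of the cell surface, had a mean of 5103 in M0, 5669 in M1 and 16755 in M2. SLC2A1 (GLUT1), the widely used basal glucose carrier, had a mean of 6613 in M0, 3099 in M1 and 6979 in M2. SLC2A6 was thus high in M1 alone, at 7.13 times the M0 mean, SLC2A3 was high in M2 alone, at 3.28 times the M0 mean, and SLC2A1 was low in M1 alone, with a log2 ratio of -1.09. The ratio of SLC2A3 to SLC2A1 was 0.772 in M0, 1.83 in M1 and 2.40 in M2, and so it was above that of M0 in both polarized groups.

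SLC2A5 (GLUT5), the fructose carrier, had means of 1026 in M0, 513 in M1 and 100 in M2. Its log2 ratio was -3.35 in M2 against M0, at rank 8 from the bottom among all genes, and was just short of -1 in M1, where rescaling of the groups would count it as lower. SLC2A9 (GLUT9), a urate carrier, had means of 3484, 2139 and 3929, and SLC2A11, a less studied member, had means of 147, 61.2 and 83.3 with a ratio of -1.26 in M1. That ratio of SLC2A11 lies within the range from -2.77 to 1.99 given above for genes averaging below 100. SLC37A2, a sugar-phosphate exchanger of the endoplasmic reticulum known from macrophages, had means of 13250 in M0, 3700 in M1 and 8868 in M2, with ratios of -1.84 and -0.58. Outside the rule for named genes, SLC45A4, a member of a family of sugar carriers, had means of 1182, 1733 and 739. It was lower in M2 than in M1 with a ratio of -1.23. Of the 4 listed hexokinases at the level, which phosphorylate glucose after its entry, HK2 had means of 832, 4385 and 2325 and was higher in M1 and M2 than in M0, and HK3 had means of 495, 75.2 and 62.4 and was lower in both.

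Among the 7 carriers of lactate and other carboxylates, 1 was higher in M1 than in M0, none passed the ratio in M2 against M0, and 1 was lower in M2 than in M1. SLC16A1 (MCT1), which moves lactate in either direction, had a mean of 588 in M0, 1601 in M1 and 679 in M2, with a log2 ratio of 1.44 in M1. SLC16A3 (MCT4), the lactate exporter of glycolytic cells, had a mean of 1954 in M0, 1462 in M1 and 1452 in M2. The ratio of SLC16A1 to SLC16A3 was 0.301 in M0, 1.09 in M1 and 0.467 in M2. Of their chaperones, which carry them to the cell surface, basigin (BSG) had means of 9958, 9157 and 9270, and embigin (EMB) had means of 2143, 921 and 844 and was lower in both polarized groups, with ratios of -1.22 and -1.34. LRIG2, which overlaps SLC16A1 in the reference annotation, had means of 642, 548 and 531. CSNK1D, which overlaps SLC16A3, had means of 2968, 2794 and 2489. Sharing of reads between these genes and the carriers was not tested.

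Of the 4 nucleoside and nucleotide carriers, 1 was lower in M1 than in M0. SLC29A1 (ENT1), the equilibrative carrier that takes up adenosine, had a mean of 2153 in M0, 819 in M1 and 2158 in M2, with a log2 ratio of -1.40 in M1 and 0.00 in M2. SLC29A3 (ENT3), its lysosomal relative, had means of 1358, 1620 and 1318. Of 8 listed genes of adenosine handling, 2 were higher and 1 lower in M1 than in M0, and none was higher and 1 lower in M2. ADORA3, an adenosine receptor, had means of 125, 1164 and 104 with a ratio of 3.22 in M1, and ADK, which phosphorylates adenosine, had means of 677, 1605 and 987 with a ratio of 1.24. ENTPD1 (CD39), which hydrolyses extracellular ATP and ADP toward AMP, had means of 633, 151 and 167 and was lower in both groups.

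Of the 24 ion carriers, 2 were higher and 6 lower in M1 than in M0, and 1 was higher and none lower in M2 than in M0. In M2 against M1, 5 were higher and 1 lower. SLC24A3 (NCKX3), which exports calcium in exchange for sodium together with potassium, had a mean of 28.9 in M0, 691 in M1 and 38.2 in M2. The log2 ratio of 4.58 in M1 against M0 was the largest of any solute carrier in that comparison, at rank 30 of all genes, but it rests on a mean below 50 in M0. SLC12A2 (NKCC1), the sodium, potassium and chloride importer, had means of 145, 324 and 194, with a ratio of 1.16 in M1. SLC8A1 (NCX1), the other main route of sodium and calcium exchange, had means of 6349, 6441 and 4769 and stayed within a 2-fold range, as did the phosphate importer SLC20A1, with means of 788, 1121 and 1119.

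Ion carriers with lower means in M1 were mostly exchangers of protons, bicarbonate and other anions. SLC9A9 (NHE9), a sodium and proton exchanger of endosomes, had a mean of 1522 in M0, 328 in M1 and 1494 in M2, with log2 ratios of -2.21 and -0.03. SLC9A5 (NHE5) had means of 141, 47.8 and 101 and a ratio of -1.56 in M1. This ratio rests on an M1 mean below 50. It lies within the range from -2.77 to 1.99 given above for genes averaging below 100. SLC26A6, an exchanger of chloride for bicarbonate and oxalate, had means of 4989, 1951 and 4697 and a ratio of -1.35. The M2 means of these genes were near those of M0, with ratios between -0.49 and -0.03. SLC26A11, SLC4A8 and SLC4A5, outside the rule for named genes, had ratios between -1.26 and -1.10 in M1. SLC26A11 had means of 976, 450 and 677, and SLC4A8 had means of 71.9, 33.6 and 51.8. The ratio of SLC4A8 rests on an M1 mean below 50 and lies within the same range from -2.77 to 1.99. SLC4A5, a sodium bicarbonate carrier, overlaps MTHFD2 in the reference annotation, and SLC4A5 had means of 232, 96.8 and 253 while MTHFD2 had means of 3309, 1859 and 4806, in the same order of groups. Reads of the 2 genes could have been shared, since strand use in counting is not given in the sources used here, and this was not tested. In M2, the sulfate importer SLC26A2 was higher, with means of 231 in M0, 195 in M1 and 518 in M2 and a ratio to M0 of 1.17. SLC4A7 (NBCn1), a sodium bicarbonate importer, had means of 1079, 1000 and 1768, a ratio of 0.71.

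Among the 9 carriers of lipids, acyl groups and choline, 1 was higher in M2 and 1 lower in M1 than in M0, and both were higher in M2 than in M1. SLC27A6 (FATP6), a carrier and activating enzyme of long-chain fatty acids described best in heart, had a mean of 3182 in M0, 2313 in M1 and 28730 in M2. The M2 mean was 9.03 times that of M0, a log2 ratio of 3.17, the largest of any solute carrier in that comparison and at rank 36 of all genes. The 3 dendritic cell markers in the table differed from each other. CD1C had means of 2556, 1001 and 60136 in M0, M1 and M2, with its lowest mean in M1 as for SLC27A6. BATF3 had means of 43.8, 381 and 559, and CCR7 had means of 99.2, 354 and 257, both higher in M1 than in M0. The part of such cells in the level of SLC27A6 was not tested. SLC27A3, an acyl-CoA synthetase of the same family, had means of 895, 575 and 645. The 3 members of the family other than SLC27A6 stayed within a 2-fold range in each comparison. SLC44A1, the choline carrier, had means of 5981, 1927 and 4634, with a ratio of -1.63 in M1, and SLC33A1, which brings acetyl-CoA into the endoplasmic reticulum, had means of 1569, 2081 and 1861.

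The 2 peptide carriers differed in M2. SLC15A1 (PEPT1), the proton-coupled importer of dipeptides and tripeptides known from the small intestine, had a mean of 420 in M0, 242 in M1 and 1428 in M2, with a log2 ratio of 1.77 in M2 against M0 and 2.56 in M2 against M1. SLC15A4, which exports histidine and peptides from lysosomes and acts in Toll-like receptor signaling, had means of 3752, 3230 and 2766 and stayed within a 2-fold range.

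**Figure D5:**
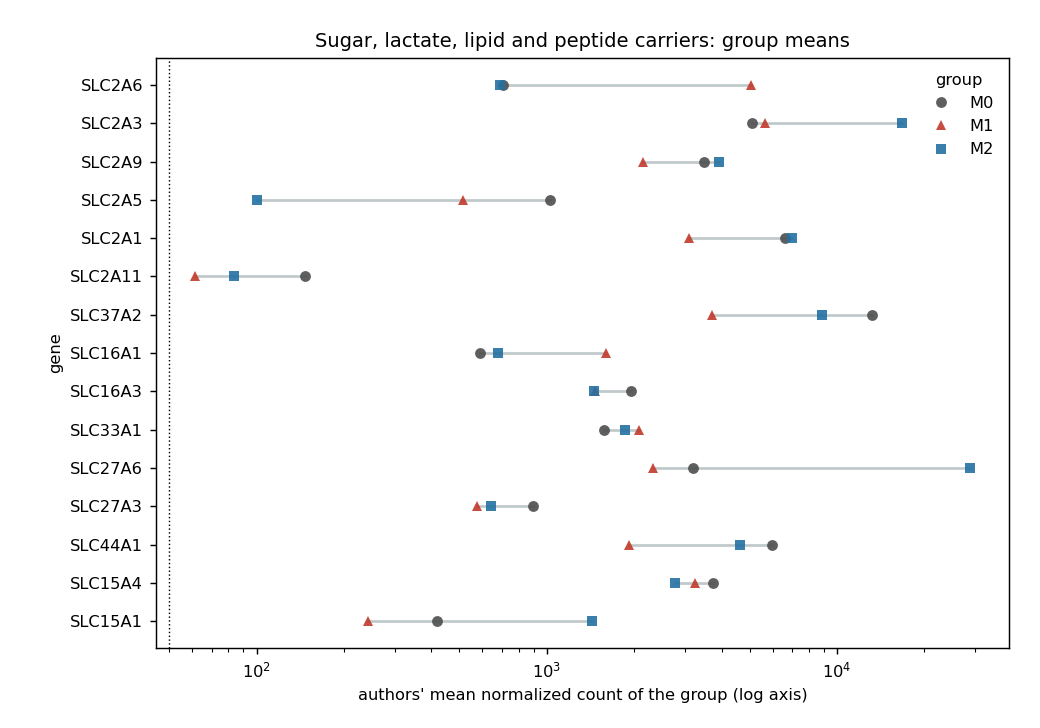
Mean normalized count of the group (x axis, log scale) for 15 carriers of sugars, lactate, lipids and peptides (y axis, within each substrate group ordered by the log2 ratio of M1 to M0) in M0 (gray circles), M1 (red triangles) and M2 (blue squares), with the level of 50 as a dotted line and no error bars because only group means were used. M1 stands apart on the right for SLC2A6 (5049) and SLC16A1 (1601), and M2 for SLC2A3 (16755), SLC27A6 (28730) and SLC15A1 (1428).

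Of the 12 carriers of vitamins, organic ions and amines, 2 were higher and 3 lower in M1 than in M0, and none was higher and 2 were lower in M2 than in M0. In M2 against M1, 1 was higher and 1 lower. The folate carriers differed from each other. SLC46A1 (PCFT), the proton-coupled folate importer, had a mean of 1902 in M0, 791 in M1 and 797 in M2, with log2 ratios of -1.27 and -1.25. SARM1, which overlaps SLC46A1 in the reference annotation, also had its lowest means in the polarized groups, at 189, 39.0 and 65.3. SLC19A1, the reduced folate carrier, had means of 980, 1120 and 705 and ratios of 0.19 and -0.48. SLC46A3, a lysosomal member of the same family as SLC46A1, had a mean of 6601 in M0, 15764 in M1 and 11374 in M2, with ratios of 1.26 and 0.79. The family thus held members that were high and members that were low in M1.

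The organic ion carrier SLC22A15 had means of 302, 634 and 187 and a log2 ratio of 1.07 in M1, and SLC22A4 (OCTN1), which takes up ergothioneine, had means of 260, 128 and 227 and a ratio of -1.03 in M1. SLC22A17, described as a receptor for lipocalin-2, had means of 683, 378 and 333, with a ratio of -1.04 in M2. SLC5A6, the importer of biotin and pantothenate, had means of 1658, 821 and 1868 and a ratio of -1.01 in M1. These 4 ratios lie close to 1 in size, and another scaling or pseudocount moves those of SLC22A15 and SLC22A4 to just below it. ATRAID, which overlaps SLC5A6 in the reference annotation, had means of 368, 303 and 366, and sharing of reads was not tested. None of the 5 nucleotide sugar carriers of the Golgi apparatus and none of the 10 genes of other or unassigned substrate passed a ratio of 1 in any comparison. The nucleotide sugar carriers kept ratios between -0.47 and 0.45 in all 3 comparisons.

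By place in the cell, from a list made after the values were seen, most genes past a ratio of 1 against M0 were assigned to the cell surface. Named genes were given a place more often than the others, so the shares below follow in part from the assignment. For example, SLC44A1, with a ratio of -1.63 in M1 against M0, had a place, and SLC44A2, with -0.77, had none. The cell surface was also the largest class, with 62 of the 136 genes. Of these 62 genes of the plasma membrane, 8 (12.9%) were higher and 15 (24.2%) lower in M1 than in M0, against 5.53% and 8.92% of all genes. In M2 against M0, 3 (4.84%) were higher and 9 (14.5%) lower, against 3.04% and 3.52%. Of 19 genes assigned to lysosomes, endosomes or phagosomes, 2 (10.5%) were higher and 2 (10.5%) lower in M1, and none passed the ratio in M2 against M0. Of 18 genes of the endoplasmic reticulum or Golgi apparatus, none was higher and 1 (5.56%), SLC37A2, was lower in M1, and none passed the ratio in M2 against M0. The 37 genes without an assigned place had 1 higher (2.7%) and 1 lower gene (2.7%) in each comparison with M0. Whether the shares differ between places was not tested, and a list filled in this way cannot decide it.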

How the data were processed

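Messenger RNA was purified on poly-T beads and sequenced from 9 samples, 3 per group. Before deposit, the authors worked in Partek Flow 7.0. Mapping was done by STAR 2.7.3a against CanFam3.1 and counting per gene by HTSeq, and the authors normalized and compared the groups by DESeq2. Only protein coding genes were kept. Tool names and versions are those of the submitters' processing notes and the study's methods. The signal values used here are the authors' deposited least squares means of normalized counts, with 1 value per gene and group. They are not corrected for gene length, and 3 further columns of means repeat the same groups. The 15 deposited columns of p-values, false discovery rates, ratios, log2 ratios and fold changes, and 3 further lists of log2 ratios for 50 genes each, hold the authors' own comparisons and were not used. Every column of means matched a group (0 unmatched). Of the 12696 genes, 1762 carry an identifier without a name.

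From the means, log2 ratios were computed without a pseudocount in Python 3.11.15 with pandas 2.3.3 and numpy 2.4.6, and plotted with matplotlib 3.10.9. A gene counted as higher or lower at a ratio of at least 1 in size, and the background was the 10902 genes with a mean of at least 50 in 1 or more groups. No model was fitted, because values per sample were not analysed here. Without them neither the depth nor the spread between dogs is known, and the computation was checked on simulated means only. The genes named were 41 members fixed as a list, up to 2 members per direction of each substrate group and comparison with the largest ratios past 1, and the 10 largest ratios per direction of each comparison, 60 members in all, and the other 76 are given by counts except where marked. A gene that the rule names is not reported here. Members, substrate groups and partner lists were chosen with earlier results of these data known, and the list of places in the cell, the genes marked as not carriers and the pairs of genes set in ratio were chosen after the values were seen. In an annotation of another dog assembly (UU_Cfam_GSD_1.0, RefSeq), 132 of the 136 genes matched by symbol and 24 overlapped another protein coding gene, and it was used only for such overlaps. Alternatives were other levels, ratios, pseudocounts and scalings, and the SLC25 carriers counted with the rest.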

Additional observations from a re-analysis of the deposited data

How the results depend on the processing

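Counts of solute carriers past the ratio moved mainly with the ratio chosen. At a log2 ratio of at least 1.5 in size, 5 of the 136 genes were higher and 7 lower in M1 than in M0, against 2.79% and 4.38% of all genes. Both shares in M1 against M0 were then only slightly above those of all genes. In M2 against M0, 3 were higher and 4 lower, against 1.56% and 1.44%. In M2 against M1, 7 were higher and 12 lower, against 4.04% and 3.01%, and the margin stayed wide only for the lower genes. At 1.5-fold, 22 were higher and 40 lower in M1 than in M0, against 13.4% and 16.8%, 9 were higher and 19 lower in M2 than in M0, against 6.31% and 8.79%, and 31 were higher and 22 lower in M2 than in M1, against 13.8% and 11.3%. With a level of 20 or 100, a pseudocount of 1 or 10, ratios centred on the median, or means scaled to their sum, every count stayed within 1.5 times that reported. A level of 20 (144 genes) or inclusion of the SLC25 carriers (170 genes) could not lower a count. With SLC25, 14 were higher and 20 lower in M1 than in M0, and 6 higher and 10 lower in M2 than in M0. In M2 against M1, 20 were then higher and 18 lower. Both shares lower than M0 were then nearer to those of all genes, at 8.92% and 3.52%. No named gene past a ratio of 1 changed sign. A pseudocount of 10 moved SLC1A3 from -5.40 to -4.57 in M2 against M0 and from -4.76 to -3.95 in M2 against M1, and SLC1A7 from -3.51 to -2.81 in M2 against M0. Calls changed for SLC22A15 in M1 against M0 (1.00, just under the ratio, after scaling to the sum), SLC22A4 in M1 against M0 (-0.97 with a pseudocount of 10), SLC9A5 in M2 against M1 (0.94 with a pseudocount of 10), SLC2A5 in M1 against M0 (-1.01 centred and -1.07 scaled to the sum) and SLC38A1 in M1 against M0 (-1.03 scaled to the sum).

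No paired analysis was possible because the values used are means over the samples of a group with no value per sample. Leaving out each replicate in turn was not run for the same lack of values.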

Other observations

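Carriers whose symbols fall outside the numbered form were examined beside the others. Of 22 further genes with an SLC symbol and a mean of at least 50 in 1 or more groups, 2 had a mean at least 2-fold higher and 3 a mean at least 2-fold lower in M1 than in M0, against 5.53% and 8.92% of all genes. In M2 against M0, 1 was higher and 4 were lower, against 3.04% and 3.52%, and in M2 against M1, 2 were higher and 3 lower, against 7.25% and 5.64%. SLCO2A1, the prostaglandin importer, had a mean of 1265 in M0, 111 in M1 and 236 in M2, with log2 ratios to M0 of -3.50 and -2.42. SLCO2B1, an importer of organic anions, had a mean of 7406 in M0, 7735 in M1 and 16090 in M2, with a ratio of 1.12 to M0 for M2. The prostaglandin importer was thus lower in both polarized groups, whereas SLCO2B1 was higher in M2 alone. SLC8B1, which exchanges calcium for sodium across the inner mitochondrial membrane, had means of 1821, 884 and 890, with ratios of -1.04 and -1.03. SLC35F5 had means of 1052, 3285 and 1594 and a ratio of 1.64 in M1, and SLC35G2 had means of 64.0, 271 and 30.8, with ratios of 2.08 in M1 and -1.05 in M2. SLC18B1, a vesicular polyamine carrier, had means of 589, 199 and 354 and a ratio of -1.56 in M1. SLC35F2 had means of 338, 322 and 150 and a ratio of -1.17 in M2. These genes were picked after their values were seen.

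A list of 28 carriers of the SLCO, MFSD and other families at the same level shares the SLCO genes with the first. Of these, 2 (7.14%) were higher and 3 (10.7%) lower in M1 than in M0, near the 5.53% and 8.92% of all genes. In M2 against M0, 2 (7.14%) were higher and 1 (3.57%) lower, against 3.04% and 3.52%. MFSD12, a lysosomal carrier needed for cysteine import into lysosomes, had means of 3467, 7917 and 8060, with ratios of 1.19 in M1 and 1.22 in M2. MFSD2A, which imports lysophosphatidylcholine, had means of 498, 242 and 758, with ratios of -1.04 in M1 and 0.61 in M2. MFSD6 had means of 617, 1417 and 452 and a ratio of 1.20 in M1, and SPNS3, of a family of lysolipid carriers, had means of 773, 327 and 499 and a ratio of -1.24 in M1. Like the values above, these have no replicate error and were not tested.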
